A study of Arabidopsis thaliana with 5 samples.

Results

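The genes described here are 10 Arabidopsis thaliana loci for sulfate uptake, sulfate reduction and the response to sulfur shortage, named by locus out of the 33559 loci of the deposited expression matrix. They are the sulfate transporters SULTR1;1, SULTR1;2 and SULTR2;1, the APS reductases APR1, APR2 and APR3, and the shortage-response genes LSU1, LSU2, SDI1 and BGLU28. All 10 were found in the matrix, and they were chosen by name, not by a measured threshold. Their levels were read in RNA-seq libraries of total RNA from roots of 5-week-old plants, labelled as the wild type Col-1. There were 5 groups of 1 library each. The control, low Mg (0.5 µM Mg2+) and high Mg (10 mM Mg2+) were sampled at 4 d of treatment, and low Mg (0.5 µM) and high Mg (10 mM) again at 7 d. The labels give neither the Mg level of the control, nor the Mg salt, nor the sulfate supply of any group. A control sampled at 7 d was not analysed here. The series asks how Mg availability bears on root hair development.

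Plants take up sulfur from the soil as sulfate, through high-affinity transporters in the outer cell layers of the root. Inside the cell, ATP sulfurylase (ATPS) activates sulfate to adenosine 5′-phosphosulfate (APS), APS reductase reduces it to sulfite, and sulfite reductase turns sulfite into sulfide. Sulfide is joined to O-acetylserine to make cysteine, from which glutathione and methionine are made. When sulfur runs short, Arabidopsis roots are known to raise the transcripts of uptake transporters, APS reductases and a set of marker genes that includes LSU, SDI and BGLU28, largely through the transcription factor SLIM1. The same shortage raises the microRNA miR395, which acts on transcripts of several ATPS genes and of SULTR2;1.

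Because miR395 ties SULTR2;1 to the ATPS genes described further on, its mature sequences are shown first. The 6 annotated miR395 genes carry 2 mature sequences of 3 genes each, which share the seed in capitals (bases 2 to 8) and are credited to RefSeq, assembly TAIR10.1.
miR395a, miR395d and miR395e: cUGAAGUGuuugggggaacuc
miR395b, miR395c and miR395f: cUGAAGUGuuuggggggacuc

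The stretches that pair best with these sequences were sought over the genomic span of each gene, introns included. A stretch across an exon junction would thus be missed. They are given next in the strand of the transcript, with capitals for bases that pair with the miRNA by Watson-Crick rules. SULTR2;1 lies among the 10 genes, and ATPS1, ATPS3 and ATPS4 are other textbook targets.
SULTR2;1, chr5:3193268-3193288, plus strand: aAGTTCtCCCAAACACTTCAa
ATPS1, chr3:8113164-8113184, plus strand: GAGTTCCtCCAAACtCTTCAt
ATPS3, chr4:8414958-8414978, minus strand: GAGTTCCtCCAAACtCTTCAt
ATPS4, chr5:17591121-17591141, minus strand: GAGTTCCtCCAAACACTTCAt
These 4 stretches lie in coding exons and leave 3, 3, 3 and 2 of 21 bases unpaired, in that order. In ATPS2, SULTR1;1, SULTR1;2, APR1, APR2 and APR3 the best stretch left 8 or 9 bases unpaired. All 6 miR395 precursor loci were listed at 0 in all 5 libraries, so the tables hold no precursor level to set beside the targets. The levels of the 4 genes are given with the transporters and with the reduction pathway.

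SULTR1;1 and LSU2, chosen after their values were seen, were highest and lowest under low Mg at 7 d, so their promoters are shown, each from 250 bases before to 50 bases after the annotated start. Capitals mark the core of the sulfur-responsive element, GAGAC, or its reverse complement GTCTC.
SULTR1;1, chr4:5500063-5500362, plus strand: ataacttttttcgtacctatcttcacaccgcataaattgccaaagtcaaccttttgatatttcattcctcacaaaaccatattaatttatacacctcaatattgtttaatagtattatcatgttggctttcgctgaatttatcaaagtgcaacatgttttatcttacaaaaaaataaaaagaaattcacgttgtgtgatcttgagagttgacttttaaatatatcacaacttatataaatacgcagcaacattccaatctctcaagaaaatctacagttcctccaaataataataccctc
LSU2, chr5:8444052-8444351, minus strand: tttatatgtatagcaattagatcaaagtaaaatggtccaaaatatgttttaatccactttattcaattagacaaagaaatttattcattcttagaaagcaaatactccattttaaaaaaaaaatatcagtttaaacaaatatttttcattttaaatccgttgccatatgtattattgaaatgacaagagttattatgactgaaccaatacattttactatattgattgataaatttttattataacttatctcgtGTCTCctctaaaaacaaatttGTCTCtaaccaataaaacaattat
The LSU2 window holds GTCTC 2 times, starting at bases 6 and 27 counted from the annotated transcription start. The SULTR1;1 window holds neither form, and sequence more than 250 bases before a start was not searched. Searched on both strands, the motif was in 3 of the 10 windows (LSU2, SDI1 and BGLU28). It was in 9011 of 27443 promoters of the same length, 32.8%, and a match of 5 letters is a description of the sequence only.

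Levels are FPKM, fragment numbers divided by transcript length and by library size, which allow comparison between genes. Each value comes from 1 library, so no difference below has a replicate check, a p-value or a standard error. Intervals in brackets are 95% intervals of counting error alone, computed from estimated fragment numbers. Depth was estimated at 11.2 M fragments in the control, 13.2 M and 12.0 M under low and high Mg at 4 d, and 7.01 M and 11.4 M under low and high Mg at 7 d. Ratios are given as log2 on the log2(FPKM + 1) scale, and a gene entered a comparison with 5 FPKM or more in at least 1 of its 2 libraries. A log2 ratio of 1 or more, or of -1 or less, is called 2-fold. By this filter 6 of the 10 genes were measured in each of the 6 comparisons (SULTR1;1, SULTR1;2, APR1, APR2, APR3 and LSU2). SULTR2;1, LSU1, SDI1 and BGLU28 stayed below 5 FPKM in all 5 libraries and are described by level.

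SULTR1;1 (AT4G08620, chromosome 4, bases 5500313 to 5506313, plus strand, TAIR10.1) encodes a high-affinity root sulfate transporter whose transcript is a classic marker of sulfur shortage. Its level was 31.4 FPKM in the control, 25.4 under low Mg and 24.2 under high Mg at 4 d, and 65.0 under low Mg and 30.6 under high Mg at 7 d. The library of low Mg at 7 d stood above the other 4, which lay between 24.2 and 31.4 FPKM. At 7 d the FPKM ratio of low to high Mg was 2.13 (1.94 to 2.33), a log2 ratio of 1.06 that became 0.98 with a pseudocount of 5. Between the days, low Mg at 7 d was 2.55 times low Mg at 4 d (2.33 to 2.80), a log2 ratio of 1.32. At 4 d the ratio of low to high Mg was 1.05 (0.947 to 1.17), an interval that includes 1, and its log2 ratio of 0.07 was -0.64 after TPM rescaling. In the order of levels, the counting intervals of the control and high Mg at 7 d overlapped, and so did those of low and high Mg at 4 d. In bulk RNA such as this, fewer cells of a type and less RNA per cell cannot be told apart.

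SULTR1;2 (AT1G78000, chromosome 1, bases 29327515 to 29333220, plus strand) encodes the major sulfate uptake transporter of Arabidopsis roots under sufficient supply. It was the most abundant of the 10 genes in every library, at 299.7 FPKM in the control, 398 under low Mg and 438 under high Mg at 4 d, and 282 under low Mg and 347 under high Mg at 7 d. Its order was thus not that of SULTR1;1: low Mg at 7 d, the highest library for SULTR1;1, was the lowest for SULTR1;2. Neighbouring levels in this order were outside each other's counting intervals, yet no comparison reached 2-fold on the deposited scale. Its log2 ratios ran from -0.50 (7 d against 4 d under low Mg) to 0.54 (high Mg against the control). After TPM rescaling these became 1.68, with the sign turned, and 1.81, both past 2-fold. SULTR1;1 made up 9.48% of the summed FPKM of the pair in the control, 6.02% and 5.24% under low and high Mg at 4 d, 18.7% under low Mg at 7 d and 8.10% under high Mg at 7 d. The coding sequences of the pair were 70.6% identical, with a longest shared run of 20 bases.

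SULTR2;1 (AT5G10180, chromosome 5, bases 3193017 to 3197136, plus strand) encodes a low-affinity transporter of the vascular tissue that serves sulfate transport from root to shoot. It was listed at 0.686 FPKM in the control, 1.98 under low Mg and 1.29 under high Mg at 4 d, and 1.36 under low Mg and 3.57 under high Mg at 7 d. High Mg at 7 d was the highest library and its counting interval did not overlap that of the next, low Mg at 4 d. It held about 104 estimated fragments there and 19.7 in the control, where it was lowest. The levels of low Mg at 4 d, low Mg at 7 d, high Mg at 4 d and the control each overlapped their neighbour in the order. Set directly against the control, low Mg at 4 d stood at a ratio of 2.89 (1.70 to 4.94). High Mg at 4 d stood at 1.87 (1.07 to 3.37), and both differences are below the expression filter. High Mg at 7 d also had the highest summed level of 7 shoot photosynthesis markers, 29.5 FPKM against 10.7 to 16.6 elsewhere. PSBO1 alone held 17.7 FPKM of that sum. PSBO1, RCA and LHCB2.1 were highest in this library, while RBCS1A, RBCS3B, LHCB1.3 and LHCA1 were highest in others. The part of shoot tissue in the level of SULTR2;1 was not tested.

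**Figure D1:**
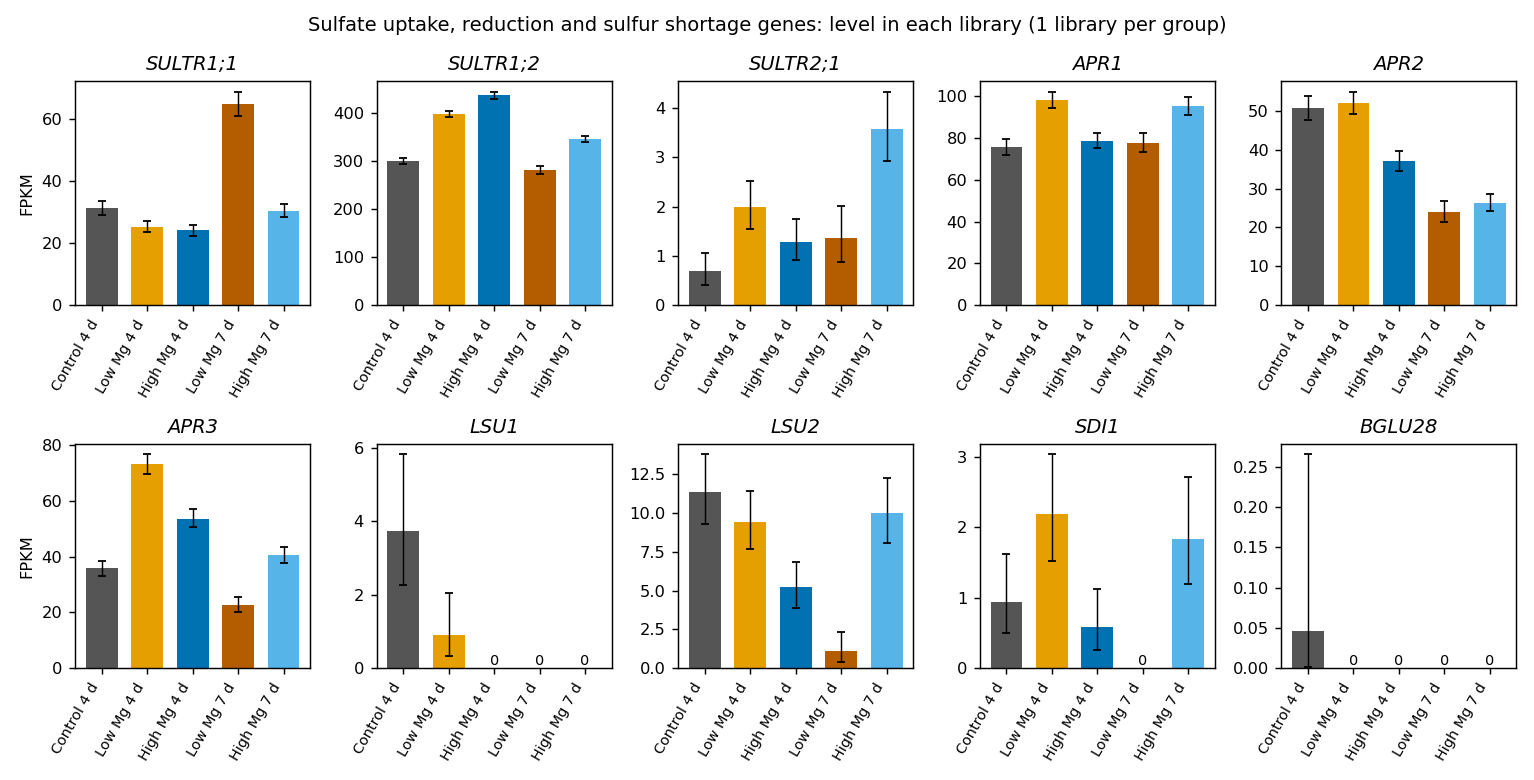
Level of each of the 10 sulfur genes (FPKM, linear axes that start at 0 and differ between panels) in the 5 libraries, 1 bar per library, with bars for the 95% counting interval where fragments could be estimated. SULTR1;1 is highest under low Mg at 7 d (65.0 FPKM), the library in which LSU2 is lowest (1.07 FPKM).

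The APS reductases carry out the step at which flux into reduced sulfur is mainly controlled. APR1 (AT4G04610, chromosome 4, bases 2324878 to 2327064, plus strand) was the most abundant of the 3 in every library, at 75.6 FPKM in the control, 98.1 under low Mg and 78.6 under high Mg at 4 d, and 77.6 under low Mg and 95.1 under high Mg at 7 d. Its levels formed a higher pair, made up of the 4-d low Mg and the 7-d high Mg library, and 3 lower libraries, with overlapping counting intervals between neighbours inside each set. Its log2 ratios ran from -0.33 to 0.37 over the 6 comparisons. After TPM rescaling, APR1 was past 2-fold in high Mg against the control, at 1.27. Between the days it then stood at 1.81 under low Mg, with the sign turned, and at 1.71 under high Mg.

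APR2 (AT1G62180, chromosome 1, bases 22975530 to 22977885, minus strand) encodes the isoform that accounts for most APS reductase activity in Arabidopsis leaves. Its level was 50.7 FPKM in the control, 51.9 under low Mg and 37.0 under high Mg at 4 d, and 24.0 under low Mg and 26.3 under high Mg at 7 d. On the deposited scale, both 7-d libraries lay below all 3 of the 4-d libraries. The ratio of 7 d to 4 d under low Mg was 0.463 (0.406 to 0.525), a log2 ratio of -1.08. It was -0.97 with a pseudocount of 5 and, with the sign turned, 1.02 after TPM rescaling. With TPM computed without the most abundant locus, AT2G01021, it was -0.65. Under high Mg the ratio was 0.711 (0.636 to 0.794), a log2 ratio of -0.48. That became 0.93 after TPM rescaling and -0.02 with TPM without AT2G01021. The control and low Mg at 4 d overlapped in their counting intervals, as did the 2 libraries of 7 d.

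APR3 (AT4G21990, chromosome 4, bases 11657008 to 11659167, minus strand), the third APS reductase isoform, ranged most widely of the 3. It was listed at 35.8 FPKM in the control, 73.1 under low Mg and 53.7 under high Mg at 4 d, and 22.6 under low Mg and 40.5 under high Mg at 7 d. Low Mg was the highest library at 4 d and the lowest at 7 d. Against the control, low Mg at 4 d stood at a ratio of 2.04 (1.87 to 2.23), a log2 ratio of 1.01 (0.94 with a pseudocount of 5), and high Mg at 4 d at a log2 ratio of 0.57. The control library is shared by both ratios. The ratio of low to high Mg was 1.36 (1.26 to 1.47) at 4 d and 0.559 (0.486 to 0.644) at 7 d. The log2 ratio at 4 d, 0.44, turned to -0.34 after TPM rescaling, where the median of all genes was -0.69. Within low Mg, 7 d stood at 0.310 times 4 d (0.271 to 0.352), a log2 ratio of -1.65 that turned to 0.47 after TPM rescaling.

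Summed over the 3 isoforms, APS reductase stood at 162 FPKM in the control, 223 under low Mg and 169 under high Mg at 4 d, and 124 under low Mg and 162 under high Mg at 7 d. APR3 contributed 22.1% of that sum in the control, 32.8% and 31.7% under low and high Mg at 4 d, and 18.2% and 25.01% under low and high Mg at 7 d. The share of APR1 was 62.4% under low Mg and 58.7% under high Mg at 7 d, and 44.0% to 46.6% in the 4-d libraries. Coding sequences of APR1 and APR3 were 80.1% identical with a longest shared run of 41 bases, so reads from such stretches may be split between them. Each APR gene overlaps an annotated gene on the opposite strand, APR1 by 21 bases with AT4G04614, APR2 by 225 bases with AT1G62170 and by 782 with the non-coding AT1G08477, and APR3 by 27 bases with the autophagy gene APG8A. AT1G62170 was listed at 0 in all libraries, while APG8A stood at 139 to 231 FPKM. Whether the libraries kept strand information is not given in the sources used here.

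LSU genes (RESPONSE TO LOW SULFUR) encode small proteins whose transcripts are among the firmest markers of sulfur shortage. LSU2 (AT5G24660, chromosome 5, bases 8443279 to 8444101, minus strand) was listed at 11.4 FPKM in the control, 9.43 under low Mg and 5.20 under high Mg at 4 d, and 1.07 under low Mg and 10.0 under high Mg at 7 d. Low Mg at 7 d was the lowest library, outside the counting interval of the next, high Mg at 4 d, which in turn lay below the remaining 3. The control, high Mg at 7 d and low Mg at 4 d overlapped as neighbours. At 7 d the ratio of low to high Mg was 0.107 (0.0371 to 0.234), a log2 ratio of -2.41 that rests on about 6.18 fragments under low Mg against 93.8 under high Mg. At 4 d the ratio was 1.81 (1.298 to 2.62), a log2 ratio of 0.75. Within low Mg, 7 d stood at 0.114 times 4 d (0.0394 to 0.248), a log2 ratio of -2.33 (-0.56 after TPM rescaling). High Mg at 4 d stood at 0.457 times the control (0.318 to 0.639), and its log2 ratio of -0.999 was just short of 2-fold (0.10 after TPM rescaling).

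LSU1 (AT3G49580, chromosome 3, bases 18374908 to 18375940, minus strand) was listed at 3.75 FPKM in the control and 0.910 under low Mg at 4 d, and at 0 in the other 3 libraries. These levels rest on about 19.3 and 5.53 fragments, and their counting intervals did not overlap. A value of 0 in these tables can be a failed estimate: 8 nuclear loci were listed at 0 in 1 library and at 20 FPKM or more in each of the other 4. No fold against a 0 is therefore printed. Genes with a 0 still enter counts and medians, through the pseudocount added to each value.

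The other family members LSU3 and LSU4 are not among the 10 genes, but each lies beside one of them. LSU1 and LSU3 are 1760 bases apart and LSU2 and LSU4 are 1914 bases apart, on the same strand and with 0 annotated loci between them. LSU3 stood at 6.90 FPKM in the control, 8.91 under low Mg and 1.48 under high Mg at 4 d, at 0 under low Mg and at 1.07 under high Mg at 7 d. LSU4 stood at 11.6 FPKM in the control, 6.69 under low Mg and 5.63 under high Mg at 4 d, and at 0.782 under low Mg and 1.91 under high Mg at 7 d. Both neighbours were thus lowest under low Mg at 7 d, as LSU2 was. LSU3 was listed at 0 there, which can be a failed estimate, and LSU4 rests on about 4.19 fragments. Under high Mg at 7 d LSU2 was close to its control level while LSU3 and LSU4 were not. Summed over LSU1 to LSU4, the family stood at 33.7 FPKM in the control, 25.9 under low Mg and 12.3 under high Mg at 4 d, 1.85 under low Mg at 7 d and 13.0 under high Mg at 7 d. LSU2 made up 33.8%, 36.3%, 42.3%, 57.8% and 77.1% of these sums in the same order. The coding sequences of LSU2 and LSU4 were 87.0% identical with a longest shared run of 30 bases, and those of LSU1 and LSU3 80.7% with one of 23 bases, so the split of reads within the family is uncertain.

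**Figure D2:**
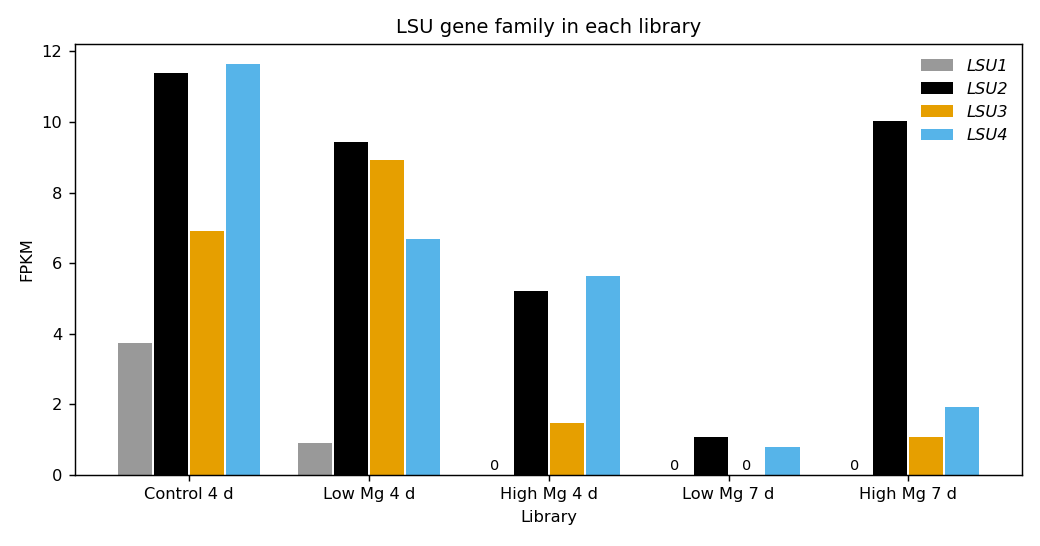
Level of LSU1 to LSU4 (FPKM, axis from 0) in the 5 libraries, 1 bar per gene and library, with 0 written where a gene was listed at 0. All 4 genes are at 1.07 FPKM or less under low Mg at 7 d, and LSU2 alone reaches 10.0 FPKM under high Mg at 7 d.

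SDI1 (AT5G48850, chromosome 5, bases 19805437 to 19807853, minus strand) encodes a repressor of glucosinolate synthesis that is induced when sulfur is short. It was listed at 0.944 FPKM in the control, 2.18 under low Mg and 0.585 under high Mg at 4 d, and at 0 under low Mg and 1.84 under high Mg at 7 d. The counting intervals of neighbouring levels above 0 overlapped. Low Mg at 4 d was 3.74 times high Mg at 4 d (1.66 to 8.35), from about 35.1 and 8.53 fragments, a difference below the expression filter.

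BGLU28 (AT2G44460, chromosome 2, bases 18346306 to 18350026, plus strand) encodes a beta-glucosidase that breaks down glucosinolates to release sulfur, and it is one of the transcripts most strongly induced by sulfur shortage. It was listed at 0.0464 FPKM in the control and at 0 in the 4 other libraries.

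**Figure D3:**
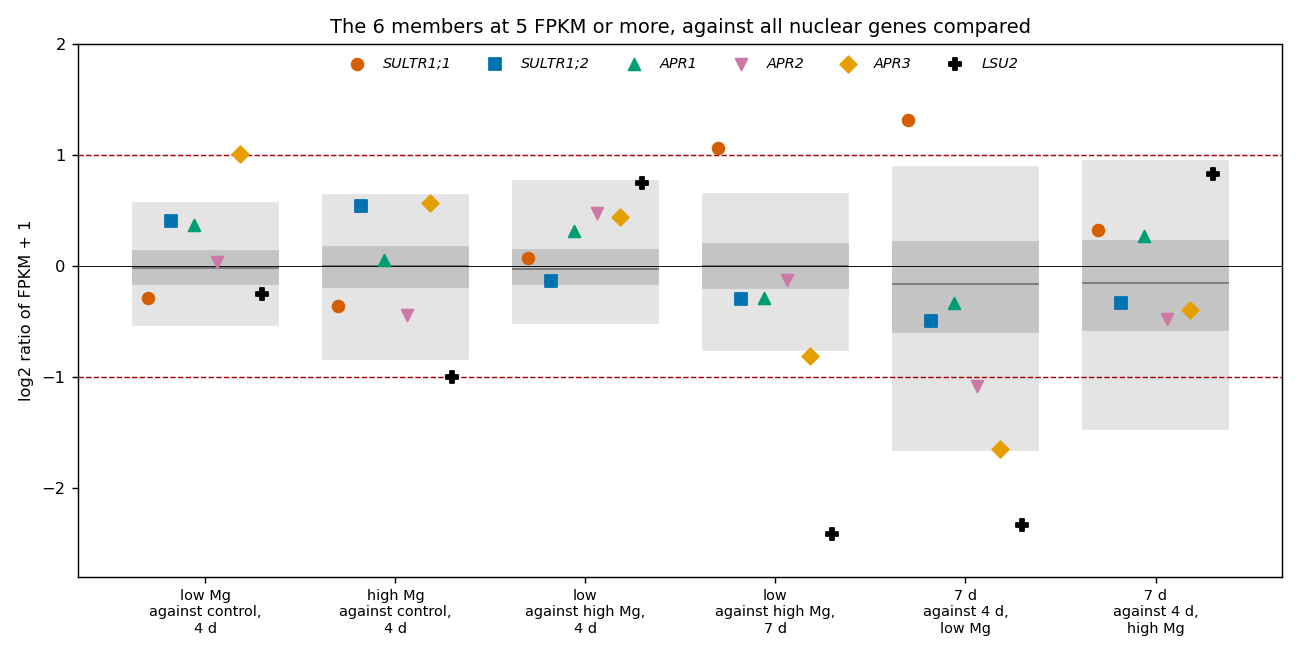
Log2 ratio on the log2(FPKM + 1) scale of the 6 measured sulfur genes (points) in the 6 comparisons, over the 5th to 95th (light grey) and 25th to 75th (dark grey) percentiles of all nuclear genes compared, with dashed lines at 2-fold. SULTR1;1 (1.06) and LSU2 (-2.41) lie past 2-fold on opposite sides in low against high Mg at 7 d.

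Set against all genes, the 6 measured genes gave the following counts. Under low Mg against the control at 4 d, 1 of 6 was 2-fold higher (APR3) and 0 were 2-fold lower, where 3.83% of 15873 nuclear genes were 2-fold apart, 2.16% higher and 1.67% lower. Their median log2 ratio was 0.20, beside -0.02 for all genes. Under high Mg against the control, 0 of 6 were 2-fold apart, where 6.35% of 15962 genes were (2.52% higher, 3.83% lower), and the medians were -0.15 and 0.00. These 2 comparisons share the control library.

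Between low and high Mg at 4 d, 0 of 6 were 2-fold apart, beside 5.49% of 15837 genes (3.69% higher, 1.80% lower), and the medians were 0.38 and -0.02. Between low and high Mg at 7 d, SULTR1;1 was 2-fold higher and LSU2 2-fold lower, 2 of 6 genes, beside 5.75% of 15684 genes (2.54% higher, 3.21% lower). The median of the 6 was -0.29, with 5 of 6 below 0, beside 0.00 for all genes. Of all genes compared, 97.6% lay below the log2 ratio of SULTR1;1 and 0.682% lay below that of LSU2.

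Between 7 d and 4 d under low Mg, SULTR1;1 was 2-fold higher and APR2, APR3 and LSU2 were 2-fold lower, 4 of 6 genes, beside 16.9% of 16182 genes (4.03% higher, 12.9% lower). The median of the 6 was -0.79, and that of all genes -0.16. Under high Mg, 0 of 6 were 2-fold apart between the days, beside 16.0% of 16081 genes (4.65% higher, 11.3% lower), and the medians were -0.03 and -0.15. The submitters' processing notes name an aligner and a counter for the 4-d samples and none for the 7-d samples, and day and any difference in processing cannot be told apart. A single locus of 102 bases, AT2G01021, took up 57.5% to 82.3% of summed FPKM in the 4-d libraries and 15.6% to 18.5% in the 7-d libraries. Rescaling to TPM, which that locus dominates, shifted the log2 median of all genes by 1.92 (7 d against 4 d, low Mg) and by 1.34 (the same, high Mg). After it, 4 of the 6 were 2-fold higher and 0 lower at 7 d under low Mg, in place of 1 higher and 3 lower. Under high Mg 5 were then higher and 0 lower. Of all genes, 14182 of 16182 were then 2-fold apart under low Mg and 10255 of 16081 under high Mg. The medians of all genes were 1.76 and 1.18, and those of the 6 were 1.35 and 1.41. Without AT2G01021, TPM gave 1 higher and 2 lower under low Mg, and 1 higher and 0 lower under high Mg. The medians of all genes were then 0.26 and 0.29, and those of the 6 were -0.35 and 0.44.

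**Figure D4:**
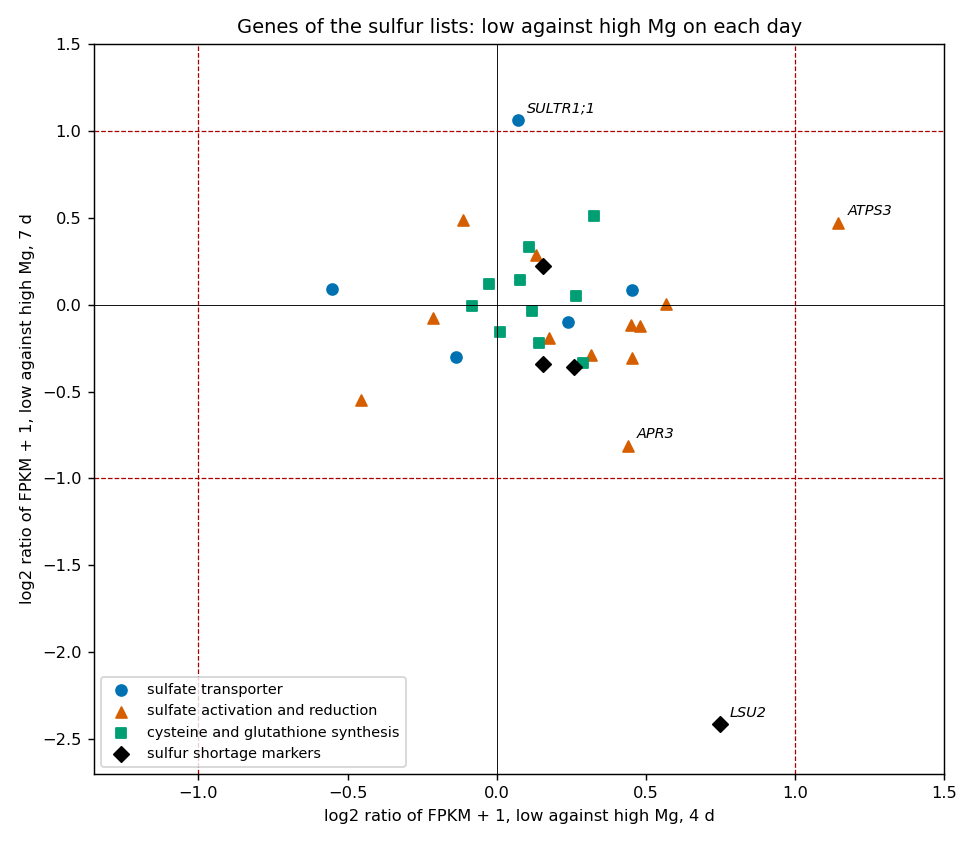
Log2 ratio of low to high Mg on the log2(FPKM + 1) scale at 4 d (horizontal axis) and 7 d (vertical axis) for 31 sulfur genes measured on both days, 1 point per gene, with a colour and shape for each of the 4 lists and dashed lines at 2-fold. LSU2 (0.75 and -2.41) and APR3 (0.44 and -0.81) lie on opposite sides of 0 on the 2 days, and SULTR1;1 stands at 0.07 and 1.06.

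The 10 genes were also read beside 36 other genes of 4 textbook lists, namely sulfate transporters, sulfate activation and reduction, cysteine and glutathione synthesis, and shortage markers. Of the 46 genes, the 10 included, 32 were measured under low Mg against the control, of which 1 was 2-fold higher (APR3) and 1 lower (ATPS4), with a median of 0.21. Under high Mg against the control, 0 of 33 were higher and 1 was lower (LSU3, -1.67, but -0.88 with a pseudocount of 5 and -0.40 after TPM rescaling), with a median of -0.04. Between low and high Mg the counts were 2 higher and 0 lower of 33 at 4 d, and 1 higher and 1 lower of 32 at 7 d. Of all genes, 3.83% and 6.35% were 2-fold apart under low and high Mg against the control. Between low and high Mg, 5.49% were at 4 d and 5.75% at 7 d. Between the days the counts were 1 higher and 6 lower of 34 under low Mg, and 1 higher and 3 lower of 33 under high Mg, where 16.9% and 16.0% of all genes were 2-fold apart.

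Of the 9 transporters outside the 10, those measured (2 to 4 in a comparison) gave 0 genes at 2-fold in any of the 6 comparisons. Of all genes, 3.83% to 16.9% were 2-fold apart in a comparison. SULTR3;5, which is known to aid SULTR2;1 in root vascular tissue, stood at 24.5 to 33.9 FPKM, and the vacuolar exporter SULTR4;1 at 20.7 to 32.5 FPKM.

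In sulfate activation, ATPS4 stood at 336 FPKM in the control, 166 under low Mg and 228 under high Mg at 4 d, and at 229 under low Mg and 336 under high Mg at 7 d. Low Mg at 4 d was the lowest library, with a log2 ratio of -1.01 against the control. That value was short of 2-fold with a pseudocount of 5, with the median of all genes set to 0 and with TPM without AT2G01021 (-0.99 in each), and was -0.52 after TPM rescaling. ATPS3 stood at 15.8 FPKM in the control, 22.1 under low Mg and 9.47 under high Mg at 4 d, and 14.7 under low Mg and 10.3 under high Mg at 7 d. Low Mg exceeded high Mg on both days for ATPS3, with log2 ratios of 1.14 (0.91 with a pseudocount of 5, 0.34 after TPM rescaling) and 0.47. ATPS1 stayed between 213 and 301 FPKM. The 4 genes with the miR395 stretches shown above thus differed in order: the highest library was high Mg at 7 d for SULTR2;1 and low Mg at 4 d for ATPS3. For ATPS1 these 2 libraries were highest, with overlapping counting intervals, and for ATPS4 the control and high Mg at 7 d were.

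APS kinases divert APS to the sulfation of glucosinolates and other compounds. APK3 stood at 16.8 FPKM under high Mg at 4 d and 6.71 at 7 d, a log2 ratio of -1.21 (0.13 after TPM rescaling), while APK4 stood at 3.75 and 11.0 FPKM, a log2 ratio of 1.34. With a pseudocount of 5 both were short of 2-fold, at -0.90 for APK3 and 0.87 for APK4. APK1 and APK2 stayed short of 2-fold in all 6 comparisons, and so did SIR, the single sulfite reductase gene, at 235 to 323 FPKM.

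In cysteine synthesis, 1 of 10 measured genes reached 2-fold in any comparison, where 3.83% to 16.9% of all genes did in each. SERAT2;1, a serine acetyltransferase that supplies O-acetylserine, stood at 51.4 FPKM in the control, 59.6 under low Mg and 48.6 under high Mg at 4 d, and at 16.8 under low Mg and 21.5 under high Mg at 7 d. Both 7-d libraries lay below the 3 of 4 d, as for APR2, with log2 ratios of 7 d to 4 d of -1.77 under low Mg and -1.14 under high Mg. After TPM rescaling these became 0.34 and 0.28, and with TPM without AT2G01021 -1.34 and -0.68. Among the shortage markers, LSU3 (2.00) was 2-fold higher under low than under high Mg at 4 d, and LSU4 was 2-fold lower at 7 d than at 4 d under low Mg (-2.11) and under high Mg (-1.19). After TPM rescaling LSU3 stood at 0.90 and LSU4 at -0.46 and -0.06, all short of 2-fold, and LSU4 under high Mg was -0.62 with a pseudocount of 5. LSU3, listed at 0 under low Mg at 7 d, is counted as lower there without a fold. SDI2, a relative of SDI1, stood at 16.1 to 26.0 FPKM, and SHM7, a serine hydroxymethyltransferase linked to sulfur shortage, at 19.7 to 30.3 FPKM. SLIM1 stood at 9.35 to 19.6 FPKM.

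The genes whose profile over the 5 libraries was most like that of SULTR1;1 were the metal-nicotianamine transporter gene YSL2, with a Pearson r of 0.9996 on log2(FPKM + 1) values, CSLA14 (0.995) and PAP27 (0.990). With 5 libraries and 4834 genes compared, 30 genes had r above 0.95 to SULTR1;1. The nearest to APR2 were AT2G39530, UGT87A2 and AIR12, at 0.999, 0.999 and 0.998, among 361 genes above 0.95. AT3G46080, AT1G60690 and AT5G07610 were nearest to APR3, at 0.995, 0.995 and 0.995, among 17 such genes. GLP9 (0.996), AT3G50200 (0.990) and PRPL11 (0.979) were nearest to LSU2, among 24. The points share their libraries and depths, so these values describe the profiles and carry no p-value.

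The root label was checked against 6 root genes (SCR, SHR, CASP1, BGLU23, EXPA7 and GL2), all at 5 FPKM or more in every library, with sums of 606 FPKM (low Mg, 7 d) to 2481 FPKM (high Mg, 4 d). Of the 7 shoot photosynthesis genes, 0 to 2 reached that level in a library. PSBO1 stood at 5.43 FPKM under low Mg and 17.7 under high Mg at 7 d, and LHCB2.1 was listed at 0 in 3 libraries. Among the root genes, low and high Mg at 7 d also differed for BGLU23, at 276 and 1063 FPKM, and for the root hair gene EXPA7, at 53.0 and 19.4 FPKM. The part of these differences in the 7-d ratios of SULTR1;1 and LSU2 was not tested.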

How the data were processed

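RNA-seq of root total RNA was deposited for 5 groups of 1 library each, grouped by sample titles and treatment labels. The authors deposited FPKM values for 33559 loci. For the 4-d libraries, TopHat2 2.0.8 and Cufflinks 2.1.1 appear with TAIR10 in the submitters' processing notes. Those of the 7-d libraries name only TAIR10, so for them an aligner or counter is not given in the sources used here. The unit of the 7-d values was read from the spacing of their low values. The matrix was identical to the tables of the single samples.

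Ratios were computed as log2((a + 1)/(b + 1)) on FPKM as deposited, for those of the 33280 nuclear loci that reached 5 FPKM in either library, and 2-fold was used as a description. With 1 library per group no test was made. Fragments per library were estimated from the value of 1 fragment, taken as the lowest peak in the distribution of FPKM multiplied by transcript length, over protein-coding genes of 2000 nt or more. From them came exact Poisson intervals of levels and Clopper-Pearson intervals of ratios at 95%, which cover counting error only and are approximate. They are least sure for short transcripts.

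Symbols, positions and sequences came from RefSeq TAIR10.1, where 32817 loci (97.8%) matched by locus tag. Identity is over aligned coding sequences. The 10 genes and the lists were chosen with earlier results of these data known. Named besides the 10 were up to 3 highest and 3 lowest genes of each list and comparison at 2-fold, and, among transcripts of 500 nt or more, the 3 genes of most similar profile to each gene with 5 FPKM or more and a log2 range of 1 or more. Other genes, such as those short of 2-fold, were named after their values were seen. Alternatives were another pseudocount, other filters and other scalings. The computation was tested on simulated data. Tools were Python 3.11.15, pandas 2.3.3, NumPy 2.4.6, SciPy 1.17.1, Biopython 1.88 and matplotlib 3.10.9.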

Additional observations from a re-analysis of the deposited data

Results flagged for a closer look

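Low Mg and high Mg were compared on both days, and 2 of the 6 measured genes were drawn out because the ratio lay on opposite sides of 0 and differed between the days. For LSU2 the log2 ratio of low to high Mg was 0.75 at 4 d and -2.41 at 7 d, a difference of -3.16. For APR3 it was 0.44 at 4 d and -0.81 at 7 d, a difference of -1.25. With 1 library per group and day, neither difference was tested. After TPM rescaling the log2 ratio of APR3 at 4 d was -0.34, on the same side as at 7 d, and that of LSU2 at 4 d was 0.04. The median of all genes at 4 d was then -0.69. With TPM computed without AT2G01021, APR3 stood at 0.44 and LSU2 at 0.74 at 4 d, and both remained below 0 at 7 d (-0.84 and -2.53). LSU2 rests on about 6.18 fragments in low Mg at 7 d, and APR3 on about 271.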

How the results depend on the processing

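No paired analysis was possible because each group holds 1 library, and for the same reason no library could be left out. Of the 7 ratios of the 10 genes at 2-fold, all 7 remained so with a pseudocount of 0.1, 4 with a pseudocount of 5, 6 with the median of all genes set to 0, 6 with TPM computed without AT2G01021 and 3 with TPM. Of the 10 ratios of other list genes at 2-fold, 10, 4, 8, 6 and 1 remained so under these settings in turn. A pseudocount of 5 left 0 of the 10 genes and 401 of all genes at 2-fold in low Mg against the control, and 1 and 560 in low against high Mg at 7 d. APR3 then stood at 0.94 and SULTR1;1 at 0.98. With a pseudocount of 0.1, LSU2 (-1.12) made 1 gene in high Mg against the control. Without a filter, 2, 1 and 1 of the 10 genes were at 2-fold in low Mg and high Mg against the control and in low against high Mg at 4 d. Of all genes, 820 of 23027 and 1325 of 23044 were at 2-fold in low and high Mg against the control. The calls this added were genes below 5 FPKM. They were LSU1 in low Mg (-1.31) and in high Mg, where it was listed at 0 and no fold is given, and SDI1 in low against high Mg (1.01). The medians without a filter were -0.56 (low against high Mg, 7 d) and 0.30 (days, high Mg).

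With a filter of 20 FPKM, genes of all at 2-fold numbered 367, 570 and 508 in the 3 comparisons at 4 d, 466 at 7 d, and 1781 and 1698 between the days in low and high Mg. This filter left 5 of the 10 genes and took out LSU2, whose highest level was 11.4 FPKM. The medians of those left were 0.37 and 0.0555 in low and high Mg against the control. Between the days they were -0.50 and -0.33 in low and high Mg. Between low and high Mg at 7 d, 1 gene was at 2-fold.

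TPM shifted the median of all genes by 0.38, 1.04, -0.66 and -0.07 in the Mg comparisons (low and high against the control, low against high at 4 d and 7 d), and by 1.92 and 1.34 between the days in low and high Mg, because AT2G01021 holds a different share of each sum. The members' medians became 0.64, 1.03 and -0.40 at 4 d, beside 0.36, 1.04 and -0.69 for all genes. Between the days they became 1.35 and 1.41, beside 1.76 and 1.18. Between the days in low Mg, the count of the 10 stayed at 4 but went from 1 higher and 3 lower to 4 higher and 0 lower. The other counts became 3 (high Mg against the control), 1 (7 d) and 5 (days, high Mg). For all genes the counts were 8910 of 15962 in high Mg against the control and 1612 of 15837 in low against high Mg at 4 d. Between the days they were 14182 of 16182 in low Mg and 10255 of 16081 in high Mg. Between the days, 4 of the 6 measured genes turned sign in low Mg and 3 of 6 in high Mg, and 5 ratios at 2-fold turned: APR2 (1.02), APR3 (0.47) and SERAT2;1 (0.34) in low Mg, and SERAT2;1 (0.28) and APK3 (0.13) in high Mg. Without AT2G01021, the TPM medians between the days were -0.35 in low and 0.44 in high Mg, with 1 of the 10 at 2-fold in high Mg. With the median of all genes set to 0, the median in high Mg was 0.12. Differences between the days therefore depend on the scaling. BGLU28 and LSU1 were listed at 0 in most libraries, and SDI1, SULTR2;1 and LSU2 hold few fragments in some, which limits their ratios. The part of depth in the values of 0 was not tested.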

Other observations

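Aliphatic glucosinolates, a sulfur-rich class of defence compounds made from methionine, draw on the same sulfur supply. Of 11 genes of their synthesis, 8 were measured in each comparison and 0 reached 2-fold in any of the 6. Of all genes, 3.83% to 6.35% did in the Mg comparisons, and 16.9% and 16.0% between the days in low and high Mg. MAM3, a methylthioalkylmalate synthase of methionine chain elongation, stood at 328 FPKM in the control, 513 in low Mg and 394 in high Mg at 4 d, and 762 in low Mg and 742 in high Mg at 7 d. BCAT4, an aminotransferase at the entry to the pathway, stood at 322, 441, 379, 646 and 620 FPKM in the same order. Both were lowest in the control and highest at 7 d, and so was MAM1. CYP83A1 was also highest at 7 d, but lowest in high Mg at 4 d. Other genes of the list went the other way. SOT18 was lowest in both 7-d libraries, at 172 FPKM in each. CYP79F2 (130 FPKM) and SOT17 (49.7 FPKM) were lowest in low Mg at 7 d. MYB28, the main regulator of the pathway, stayed between 67.5 and 81.8 FPKM, and its relatives MYB29 and MYB76 were listed at 0 in all 5 libraries.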
